A study of Rattus norvegicus with 5 samples.

Results

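Cultured rat ventricular myocytes that had received a control adenovirus carrying GFP were compared between day 3 and day 14. Members were the cells with at least 500 detected genes in which M, the summed level of Tnnt2, Actc1 and Myh6, was more than 2 times S, the summed level of Col1a1, Col1a2 and Col3a1. Levels are CPM, the share of a sum of unique molecular identifiers (UMIs, tags that mark single captured RNA molecules) scaled to a common total. The rule took 4836 cells at day 3 and 1779 cells at day 14, or 6615 of the 36996 cells with at least 500 genes in the series. Members were thus chosen by the measured levels of these 6 transcripts, which are given below as a description only.

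The series holds 5 droplet single-cell RNA libraries, 1 for each group. Both GFP groups are primary wild-type ventricular cells of Sprague Dawley rats at postnatal day 2, described in the labels as a mixture of myocytes and non-myocytes, kept with Adeno-GFP for 3 or for 14 days. The TBX18 groups used beside them are the same kind of cells kept with Adeno-TBX18, which carries a transcription factor of the sinoatrial node, for 3 or for 14 days. A further TBX18 group at day 14 received A83-01, an inhibitor of TGF-beta receptors, at 0.2 µM. Its treatment label gives 3 days where its title gives day 14. The labels state neither how many animals were pooled nor which promoter drives the transgene, and no untreated culture and no day 0 sample were analysed here. Since every group is 1 library, differences between days could not be set against replicates, and no test between days was made. All intervals are exact 95% intervals that cover counting error only.

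Cardiac myocytes contract through sarcomeres, in which myosin heads pull on actin filaments under the control of the troponin complex. Neonatal ventricular myocytes in culture share the dish with stromal cells, chiefly fibroblasts, which lay down collagen and go on dividing while myocytes largely leave the cell cycle. Around birth, rodent ventricular myocytes switch isoforms of several sarcomere proteins, with alpha myosin heavy chain becoming the main ventricular myosin.

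The files list genes by Ensembl ID without names. The reference tables matched 0 of 17060 IDs, so the names used here are those of the 6 rule genes and of the transgenes. Lists of sarcomere, metabolic, cell cycle and ion channel genes could therefore not be read.

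Depth and filters differed between the days. The GFP myocytes held 109510494 UMIs at day 3 and 26607199 at day 14, with medians of 22335 and 14562 UMIs for each cell. The day 3 table was deposited as UMI estimates and started at 54 genes for a barcode, while the day 14 table was deposited as log2 values and started at 1997 genes. The upper ends differed too, at 7757 genes and 88015 UMIs at day 3 and 5591 genes and 33974 UMIs at day 14. Day of culture, table scale, cell filter and counting run cannot be told apart in this design. The GFP libraries shared 14 cell barcodes, 2 of them among myocytes, against 7 to 20 for any pair of the 5 libraries.

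The myocyte share of cells was lower at day 14 with both viruses. In the GFP libraries it was 59.5% (95% interval 58.4 to 60.6) of 8128 cells at day 3 and 27.7% (26.6 to 28.8) of 6424 cells at day 14. In the TBX18 libraries it was 49.9% at day 3 and 13.0% at day 14. Stromal cells, taken by the mirror rule of S over 2 times M, made up 35.9% and 65.7% of the GFP cells at day 3 and day 14. A smaller share of myocytes can come from fewer myocytes or from more stromal cells, and the libraries give no cell number for the dish.

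The cut met different cells on the 2 days. The 95 members just inside it at day 3, with M between 2 and 4 times S, had a median M of 315 CPM and a median S of 113 CPM, so both sums were low. The 27 such members at day 14 had medians of 20320 and 8107 CPM. Just outside it, with M between 1 and 2 times S, lay 181 cells at day 3 (median M 8285 CPM, S 6043 CPM) and 135 at day 14 (18569 and 14184 CPM). Whether cells high in both sums are mixed droplets was not tested. The automatic threshold of a doublet caller marked 0.0615% and 0.0156% of the GFP cells, too few to have worked.

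Members with little of the marker transcripts were mainly a feature of day 3. M was under 5000 CPM in 166 members at day 3 (3.43%), at a median of 292 CPM, and in 14 members at day 14 (0.787%). After each cell was thinned to 5000 UMIs, all 3 myocyte transcripts were found in 97.0% of members at day 3 and in 99.6% at day 14. The same was true of 4.45% and 18.1% of stromal cells. These transcripts are the ones that chose the members, so they are no independent check of the name myocyte, and no other marker could be read.

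**Figure D1:**
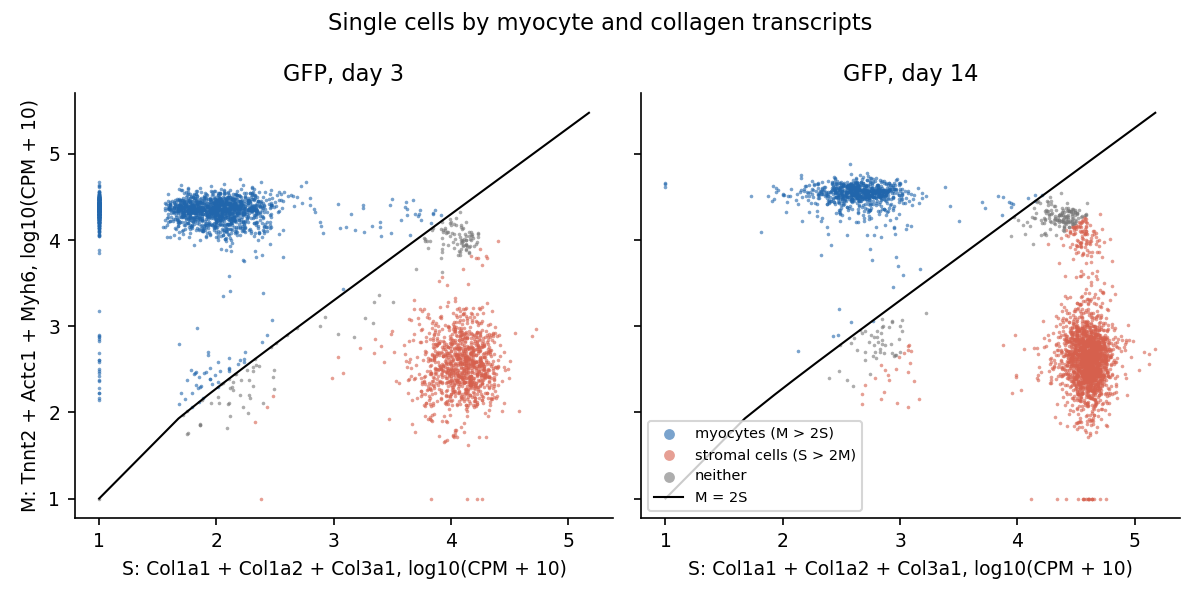
Each point is 1 of 3000 cells drawn at random from the GFP library of day 3 (left) or day 14 (right), by summed collagen transcripts S (x axis) and summed myocyte transcripts M (y axis), both as log10 of CPM plus 10. Blue cells lie above the line M = 2S and are the members; at day 14 their cloud lies farther right, with a median S of 431 CPM against 76.5 CPM.

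The promoters of the myocyte genes that defined the cells are shown because these genes moved unequally between the days. The RefSeq promoter table (build GRCr8, from 250 bases before to 50 after the start) held 4 of the 6 rule genes. Capitals mark CATTCC, the M-CAT element known to bind TEAD factors, and the CArG box, known to bind serum response factor, wherever either was found on any strand. For Tnnt2, which has 2 starts in the table, the upstream one is printed. Tnnt2 lies at chr13:49818873-49819172 on the plus strand, Actc1 at chr3:121271778-121272077 and Myh6 at chr15:32411648-32411947, both on the minus strand.
Tnnt2: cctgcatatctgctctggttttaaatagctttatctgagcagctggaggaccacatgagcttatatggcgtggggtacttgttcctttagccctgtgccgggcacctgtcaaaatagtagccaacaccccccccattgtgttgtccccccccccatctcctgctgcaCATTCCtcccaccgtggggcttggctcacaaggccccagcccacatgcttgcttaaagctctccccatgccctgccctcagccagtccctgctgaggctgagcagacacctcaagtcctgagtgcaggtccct
Actc1: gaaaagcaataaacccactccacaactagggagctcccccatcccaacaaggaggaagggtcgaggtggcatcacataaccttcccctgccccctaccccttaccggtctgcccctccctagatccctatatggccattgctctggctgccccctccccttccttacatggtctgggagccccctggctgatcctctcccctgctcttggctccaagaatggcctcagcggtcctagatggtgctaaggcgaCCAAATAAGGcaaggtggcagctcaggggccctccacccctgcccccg
Myh6: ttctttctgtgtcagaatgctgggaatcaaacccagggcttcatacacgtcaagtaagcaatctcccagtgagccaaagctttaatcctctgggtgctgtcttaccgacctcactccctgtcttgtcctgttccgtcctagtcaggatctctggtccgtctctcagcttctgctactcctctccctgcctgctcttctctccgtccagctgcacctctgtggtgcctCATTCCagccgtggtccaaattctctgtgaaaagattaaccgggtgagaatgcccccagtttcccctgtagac
The M-CAT letters lay at -83 to -78 from the start of Tnnt2 and at -23 to -18 from that of Myh6, and were not in the Actc1 window. The CArG box lay at 3 to 12 after the start of Actc1. Of 33469 promoters of the same length, 14.2% held CATTCC on either strand and 1.64% held a CArG box. AGATAA, the GATA factor motif, was found in the Tnnt2 window on the other strand and in 11.6% of all promoters, and TATAAA was in none of the 3 printed windows and in 14.2% of all promoters. The motifs do not overlap here, and a match in a window is no evidence that a factor binds.

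Tnnt2, which encodes cardiac troponin T, the subunit that anchors the troponin complex on the thin filament, was at 10123 CPM in GFP myocytes at day 3 and at 11586 CPM at day 14. This is the smallest difference of the 3, at 1.14-fold. Single cells at day 3 ranged from 4006 CPM at the 5th percentile to 15251 CPM at the 95th, around a median of 10377 CPM. At day 14 they ranged from 6542 to 16808 CPM around a median of 11511 CPM. The ranges overlapped over most of their length.

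Actc1, which encodes cardiac alpha-actin of the thin filament, was at 5218 CPM at day 3 and at 10426 CPM at day 14, just under 2-fold at a log2 ratio of 1.00. Its cell median was 4812 CPM (1561 to 10642 between the 5th and 95th percentiles) at day 3 and 10838 CPM (3214 to 16202) at day 14. The median cell of day 14 thus lay above the 95th percentile of day 3. Myh6, which encodes alpha myosin heavy chain, was at 6514 CPM at day 3 and at 12076 CPM at day 14, a ratio of 1.85. Its cell median was 6516 CPM (552 to 12118) at day 3 and 12170 CPM (3573 to 19579) at day 14. That median also lay above the 95th percentile of day 3.

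The make-up of the sum changed with these levels. Of the UMIs of the 3 genes, Tnnt2 held 46.3% at day 3 and 33.99% at day 14, Actc1 23.9% and 30.6%, and Myh6 29.8% and 35.4%. The sum took 2.19% of all UMIs of GFP myocytes at day 3 and 3.41% at day 14.

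The spread of the 3 transcripts over the members is given as a description, since they chose the cells. In cells thinned to 5000 UMIs, the coefficient of variation went from 34.7% to 29.4% for Tnnt2, from 56.9% to 38.1% for Actc1 and from 51.2% to 40.4% for Myh6. The 166 low members of day 3 and the 14 of day 14 enter these values, and their part in them was not tested. Spearman's rho across cells of Tnnt2 with Actc1 was 0.40 over 4698 cells at day 3 and 0.27 over 1779 cells at day 14. That of Tnnt2 with Myh6 was 0.30 and 0.22, and that of Actc1 with Myh6 was 0.24 and 0.28, so the pairs did not move in 1 direction. These cells share a library and a fixed UMI total, and each rho is a description.

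In TBX18 myocytes Tnnt2 and Myh6 were likewise higher at day 14, while Actc1 was lower. Tnnt2 was at 6067 CPM at day 3 and at 12928 CPM at day 14, a log2 ratio of 1.09 beside 0.19 with GFP. Myh6 was at 6041 and 10269 CPM, a log2 ratio of 0.77 beside 0.89 with GFP. Under median-of-ratios scaling the log2 ratio of Tnnt2 was 0.70 beside 0.10 with GFP, and that of Myh6 0.38 beside 0.79. Actc1 was at 12665 CPM at day 3 and at 9930 CPM at day 14, so its log2 ratio of day 14 over day 3 was -0.35 against 1.00 in GFP myocytes. At day 3 Actc1 was thus higher with TBX18 than with GFP, and at day 14 the levels of both viruses lay between 9930 and 10426 CPM. The difference in course between the viruses was not tested. With TBX18, 417 of the 3236 day 3 members (12.9%) had M under 5000 CPM.

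**Figure D2:**
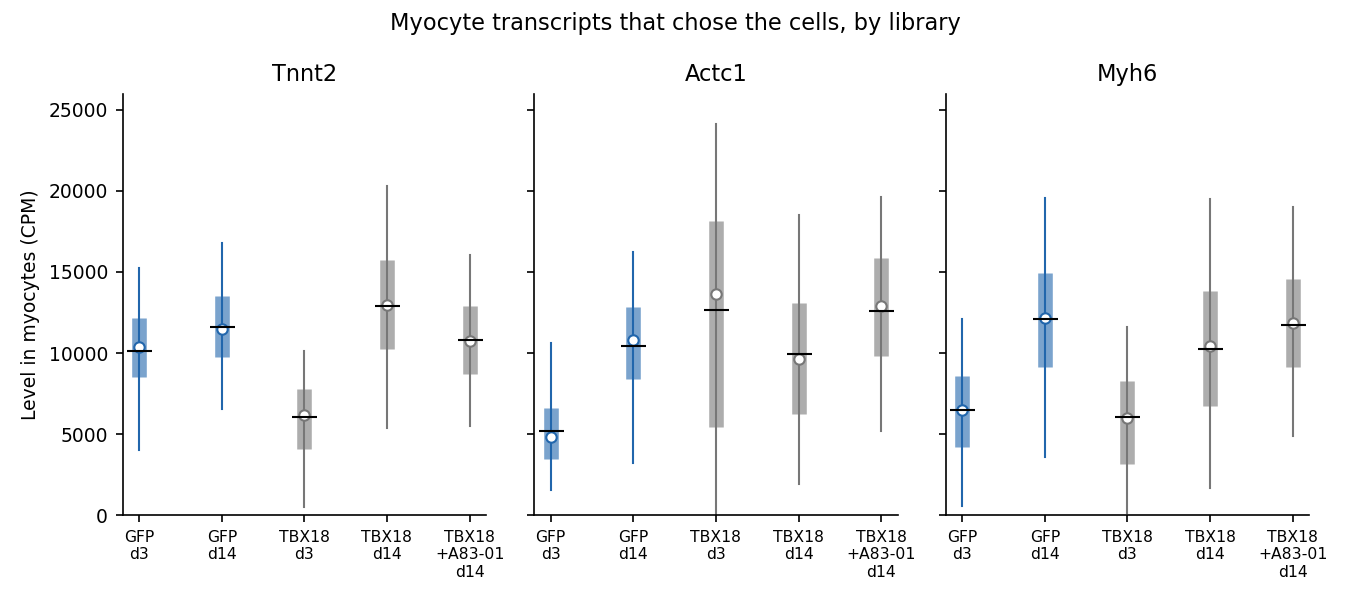
Level of Tnnt2, Actc1 and Myh6 (y axis, CPM) in the myocytes of each of the 5 libraries, GFP in blue and TBX18 in grey (d3 and d14 are day 3 and day 14). Circles are cell medians, thick bars the middle range from the 25th to the 75th percentile, thin lines the 5th to 95th percentiles and black dashes the level of the summed UMIs; Actc1 and Myh6 lie higher at day 14 than at day 3 with GFP, while Actc1 lies lower at day 14 with TBX18.

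Collagen transcripts in the myocytes were low on both days and higher at day 14. Col1a1, which encodes a chain of type I collagen, was at 60.8 CPM in GFP myocytes at day 3 and at 255 CPM at day 14. Col1a2, the other chain of type I collagen, went from 45.0 to 134 CPM, and Col3a1, of type III collagen, from 63.5 to 190 CPM. All are levels that the rule kept low.

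The stromal cells of the same libraries moved alongside. Their Col1a1 level was 5158 CPM at day 3 and 16706 CPM at day 14, so the myocyte level was 1.18% and 1.52% of it. For Col1a2 the myocyte level was 1.18% and 1.16% of the stromal one, and for Col3a1 1.47% and 1.58%. Members without any collagen UMI numbered 946 at day 3 and 7 at day 14, at median depths of 18998 and 13521 UMIs. Free RNA from stromal cells, mixed droplets and collagen transcripts of the myocytes cannot be told apart here.

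Summed over stromal cells, myocyte transcripts moved the same way. Actc1 was at 74.7 CPM in GFP stromal cells at day 3 and at 355 CPM at day 14, or 1.43% and 3.41% of the myocyte level. Myh6 was at 78.2 and 363 CPM, or 1.20% and 3.01%. Tnnt2 was at 393 and 569 CPM, or 3.89% and 4.91%. The median stromal cell changed less, with M at 353 CPM at day 3 and at 430 CPM at day 14. The 95th percentile of M went from 1300 to 5773 CPM, so the sums do not describe the typical stromal cell.

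EGFP, the transcript of the control virus, was found in both GFP libraries and lay higher in myocytes at day 14. Its day 3 level was 92.9 CPM (91.1 to 94.7) and its day 14 level 163 CPM (158 to 168), a log2 ratio of 0.81 (0.76 to 0.86). ZsGFP and hTBX18, the transgene transcripts of the TBX18 libraries, had 0 UMIs in GFP myocytes, which allows up to 0.0274 CPM on day 3 and up to 0.113 CPM on day 14 (3 counts). In GFP stromal cells the day 3 level was 7.19 CPM (6.60 to 7.81) and the day 14 level 20.9 CPM (19.8 to 22.0).

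The higher EGFP level at day 14 sat mostly in cells with several UMIs. After thinning to 5000 UMIs, which left out 138 myocytes at day 3 and 0 at day 14, 25.03% (23.8 to 26.3) and 28.2% (26.1 to 30.4) of myocytes had an EGFP UMI. At least 3 EGFP UMIs were found in 3.62% (3.10 to 4.19) of day 3 myocytes and 8.54% (7.29 to 9.94) of day 14 myocytes. At least 5 were found in 1.04% (0.773 to 1.38) and 3.65% (2.83 to 4.63). Cells with at least 3 UMIs held 37.5% of the EGFP UMIs at day 3 and 66.9% at day 14.

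Among stromal cells thinned in the same way, of which 18 and 2 were left out, 2.34% had an EGFP UMI at day 3 and 5.48% at day 14. The unthinned shares were 52.7% and 44.7% of myocytes at median depths of 22335 and 14562 UMIs, and 8.32% and 12.6% of stromal cells at median depths of 24535 and 15922 UMIs. The unthinned share of myocytes was thus lower at day 14 and the thinned share higher, at unequal depths, while the CPM was higher. Free EGFP RNA was not measured, because no class of cells without virus is known in these cultures.

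**Figure D3:**
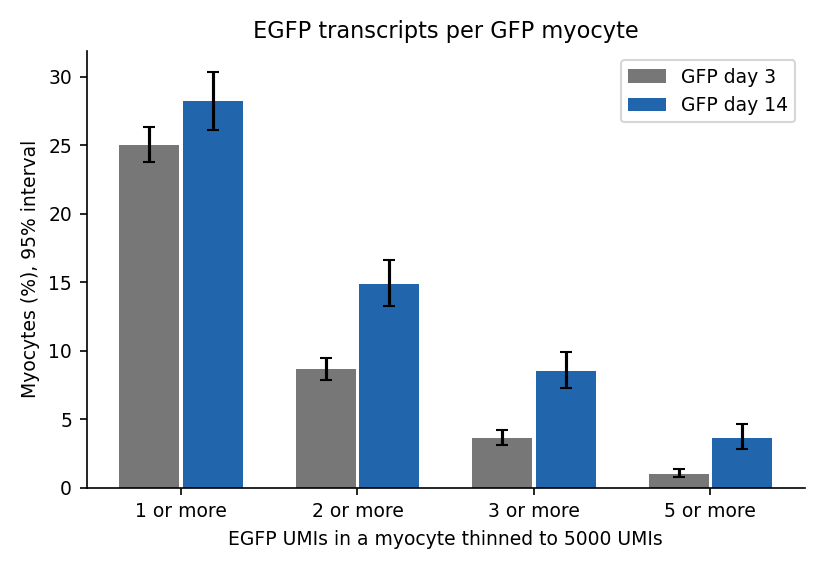
Share of GFP myocytes (y axis, %) with at least 1, 2, 3 or 5 EGFP UMIs after thinning to 5000 UMIs, at day 3 (grey) and day 14 (blue); bars start at 0 and error bars are exact binomial 95% intervals. The shares with at least 1 UMI lie within 4 points of each other, and the share with at least 5 UMIs is 1.04% at day 3 and 3.65% at day 14.

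Across the transcriptome, most genes of the GFP myocytes stayed within 2-fold. UMIs were summed over the myocytes of each library, and 8125 genes had a mean of at least 5 CPM. The log2 ratios of day 14 over day 3, with 0.5 CPM added, had a median of 0.10 and an SD of 1.00 over genes. At least 2-fold higher at day 14 were 883 genes (10.9%), and at least 2-fold lower were 632 genes (7.78%), 18.6% of the genes tested in either direction. At least 4-fold higher were 270 genes and at least 4-fold lower 139.

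Genes past 2-fold carried a modest part of the RNA. The 883 higher genes held 4.23% of the myocyte UMIs at day 3 and 16.3% at day 14. The 632 lower genes held 13.2% and 4.72%. At 5000 UMIs a myocyte showed a median of 1548 genes at day 3 and 1619 at day 14. The 10 most abundant genes took 24.1% and 23.9% of the UMIs.

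Genes that lean to the myocytes are described beside all genes tested. Of the genes tested, 651 had a mean level over both days at least 5 times higher in GFP myocytes than in GFP stromal cells. Of these, 181 (27.8%) were at least 2-fold higher at day 14 and 51 (7.83%) at least 2-fold lower, beside 10.9% and 7.78% of all genes tested. Their median log2 ratio was 0.41 beside 0.10 for all genes. The list was drawn from these same libraries, so the counts describe it and are no independent evidence.

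The same genes, Tnnt2, Actc1 and Myh6 among them, made up 31.9% of the UMIs of GFP myocytes at day 3 and 38.4% at day 14. In the TBX18 myocytes they held 32.4% and 31.6%. Without the rule genes, 648 genes remained. These held 29.7% and 35.0% of the UMIs of GFP myocytes, and 29.9% and 28.3% of those of TBX18 myocytes. Genes that lean to the stromal cells, 267 in all, gave 46 at least 2-fold higher (17.2%) and 40 at least 2-fold lower (15.0%), both shares above those of all genes tested, around a median log2 ratio of -0.02. In the myocyte RNA these stromal-leaning genes took 1.46% of UMIs at day 3 and 1.15% at day 14, whereas the 3 collagens were higher at day 14.

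**Figure D4:**
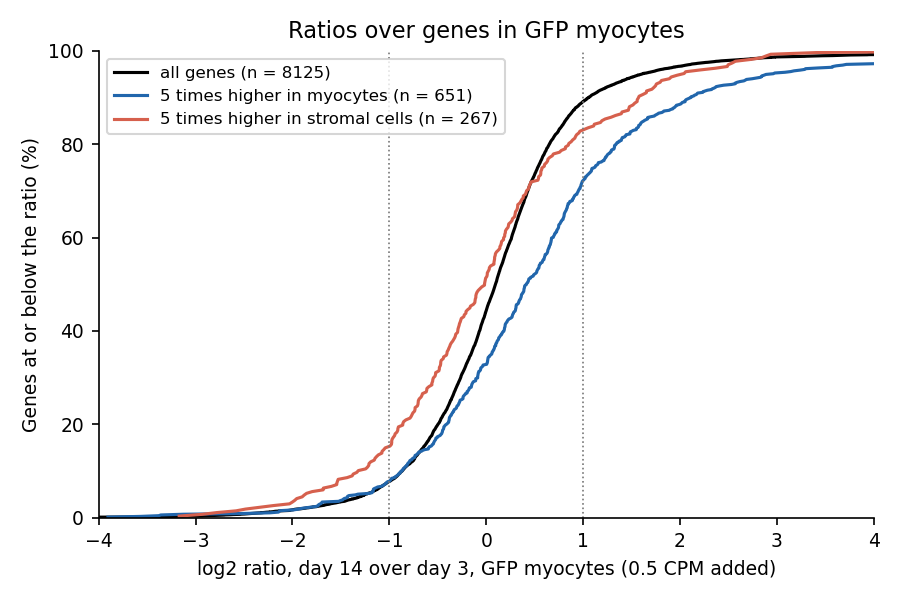
Cumulative share of genes (y axis, %) by log2 ratio of day 14 over day 3 in GFP myocytes (x axis, cropped at -4 and 4) for all 8125 genes (black), the 651 genes at least 5 times higher in myocytes (blue) and the 267 genes at least 5 times higher in stromal cells (red). Dotted lines mark 2-fold; the blue curve runs to the right of the black one above the lower line, and 27.8% of its genes lie past the upper line.

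Part of the difference was common to every cell class and library of a day. Of the genes tested, 49 were at least 4-fold higher in each of 6 sums of day 14 (myocytes and stromal cells of 3 libraries) than in each of 4 sums of day 3, and 11 were at least 4-fold lower. Of the 12 genes with the highest ratios in GFP myocytes, at a mean of at least 20 CPM, 10 belonged to the 49, and of the 12 with the lowest ratios 5 belonged to the 11. These genes separate the days whatever the cell and the virus, and day cannot be told apart from table there. Without them the SD over genes was 0.89, and 834 genes were at least 2-fold higher and 621 lower.

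The other comparisons of day 14 with day 3 gave more genes past 2-fold in the upward direction. In GFP stromal cells, 1776 of 8732 genes (20.3%) were at least 2-fold higher and 748 (8.57%) at least 2-fold lower. The median log2 ratio there was 0.21. In TBX18 myocytes, 1450 of 8478 genes (17.1%) were higher and 257 (3.03%) lower, or 20.1% in either direction, around a median log2 ratio of 0.38. In TBX18 stromal cells, 2556 of 8850 genes (28.9%) were higher and 456 (5.15%) lower, or 34% in either direction. Their median log2 ratio was 0.47. None of these counts was centred on the median. With median-of-ratios scaling, GFP myocytes had 762 genes higher and 763 lower. The GFP stromal cells come from the same libraries as the GFP myocytes, so no overlap between them is given.

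The TBX18 comparison shares no library with the GFP one. Both set day 3 tables of UMI estimates against day 14 tables on a log2 scale, with cells chosen by the same rule. Overlap from day cannot be told apart here from overlap due to table or filter. Of 841 genes higher at day 14 in GFP myocytes and tested in both, 518 were also higher in TBX18 myocytes, which is 61.6% of the GFP list and 39.4% of the 1314 in the TBX18 list. Of all 7962 genes tested in both, 16.5% were higher with TBX18. At least 2-fold the other way were 13. Of 590 lower genes, 159 were also lower with TBX18, or 26.9% of the GFP list and 72.3% of the 220 in the TBX18 list, beside 2.76% of all genes tested in both, and 26 lay at least 2-fold the other way. The TBX18 ratios had a median log2 of 0.38 against 0.10 with GFP, and the counts were not centred. Genes 4-fold apart between days in every sum were not left out.

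TBX18 stromal cells, another cell class, had larger shares of the GFP list and also a larger background. There, 457 of 679 genes were also higher (67.3% of the GFP list and 24.1% of the 1893 in the other list), beside 25.9% of all 7322 genes tested in both. Of 555 lower genes, 207 were also lower (37.3% of the GFP list and 55.2% of the 375 in the other list), beside 5.12% of all genes. Opposite calls numbered 11 and 22. The TBX18 stromal ratios had a median log2 of 0.47 and were not centred either. The difference between these overlaps was not tested.

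The myocyte-leaning genes are given for each comparison by their own values. In GFP stromal cells, 286 of the 651 (43.9%) were at least 2-fold higher at day 14 and 9 lower. In TBX18 myocytes 247 (37.9%) were higher and 22 lower, and in TBX18 stromal cells 167 (25.7%) were higher and 23 lower. Of all 8125 genes tested in GFP myocytes, 19.9% were at least 2-fold higher in GFP stromal cells, 16.8% in TBX18 myocytes and 25.7% in TBX18 stromal cells. The list was drawn from the GFP levels of both days, so these shares are a description. The stromal shares rest on sums that include cells high in M.

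The 4 unnamed genes below were chosen after their values were seen, as the myocyte-leaning genes past 2-fold with the largest change in CPM in each direction. ENSRNOG00000043866 was at 5875 CPM in GFP myocytes at day 3 and at 34910 CPM at day 14, where it was the 2nd most abundant transcript after standing in 16th place. Its log2 ratio was 2.57 (2.57 to 2.58). The cells of the days barely overlapped, with a 95th percentile of 12587 CPM at day 3 and a 5th percentile of 13190 CPM at day 14. In stromal cells of the GFP libraries it was at 830 and 4840 CPM, a log2 ratio of 2.54. With TBX18 the myocyte log2 ratio was 1.09, from 7770 to 16566 CPM.

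ENSRNOG00000030478 was at 2795 CPM in GFP myocytes at day 3 and at 14410 CPM at day 14, a log2 ratio of 2.37 (2.36 to 2.37). Its cell median went from 2710 to 14234 CPM. In GFP stromal cells it was at 324 and 2555 CPM, a log2 ratio of 2.98, and in TBX18 myocytes at 3321 and 7285 CPM, a log2 ratio of 1.13. Summed over cells, both genes were therefore higher at day 14 in each class and virus. With GFP their change was as large in the stromal sums as in the myocyte sums. The part of stromal cells high in M in this was not tested.

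ENSRNOG00000008176 was at 21949 CPM in GFP myocytes at day 3, in 6th place, and at 6781 CPM at day 14, a log2 ratio of -1.69 (-1.70 to -1.69). Cells differed widely in it. At day 3 cells ran from 199 CPM at the 5th percentile over a median of 15321 CPM to 62171 CPM at the 95th, and at day 14 from 0 over 3274 to 23278 CPM. In GFP stromal cells it was at 237 and 223 CPM, a log2 ratio of -0.09, whereas in TBX18 stromal cells the log2 ratio was -3.07. In TBX18 myocytes it was at 30788 and 2359 CPM, a log2 ratio of -3.71, and in the TBX18 culture with A83-01 it was at 12250 CPM at day 14.

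ENSRNOG00000009073 was at 2534 CPM in GFP myocytes at day 3 and at 1012 CPM at day 14, a log2 ratio of -1.32 (-1.34 to -1.31). In TBX18 myocytes it was at 1938 and 734 CPM, a log2 ratio of -1.40, close to the GFP value. In GFP stromal cells it was at 34.8 and 46.0 CPM, a log2 ratio of 0.40. Its thinned counts had a rho with the summed myocyte transcripts of 0.42 over 4698 cells at day 3 and of 0.03 over 1779 cells at day 14, again as a description. The gene was lower at day 14, and members with M under 5000 CPM were a larger share at day 3. The part of either in these rho values was not tested.

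**Figure D5:**
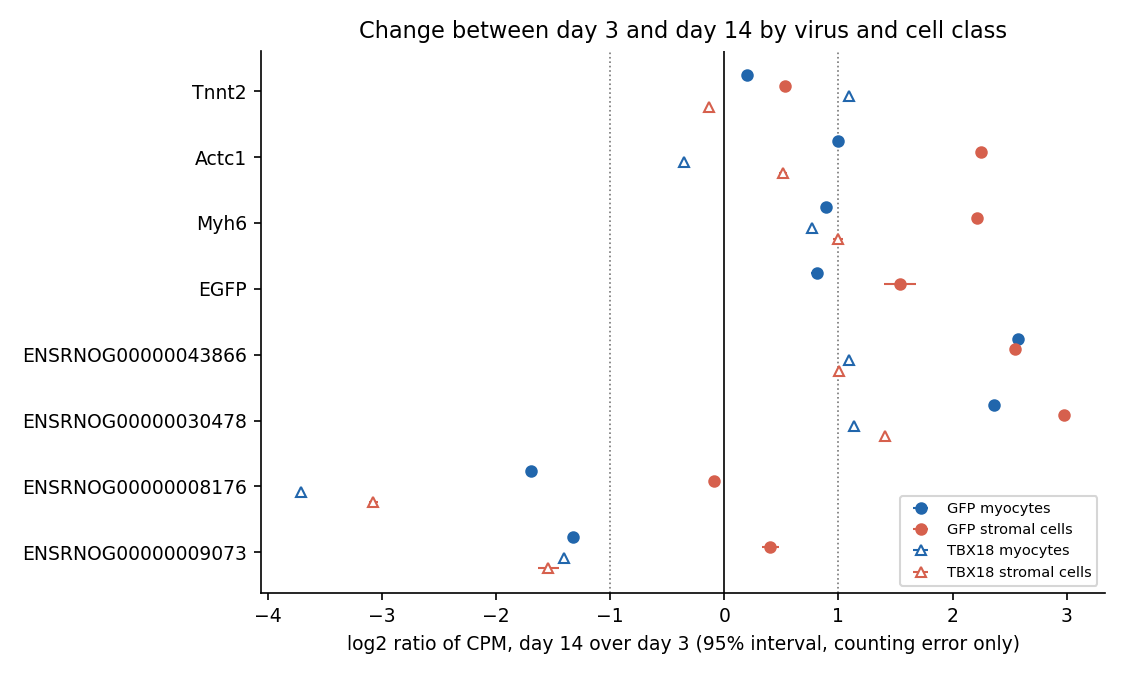
Log2 ratio of day 14 over day 3 (x axis) for Tnnt2, Actc1, Myh6, EGFP and the 4 unnamed genes, in myocytes (blue) and stromal cells (red) of the GFP (filled circles) and TBX18 (open triangles) libraries, with exact 95% intervals for counting error, most of them narrower than the symbols. Dotted lines mark 2-fold; Actc1 lies on opposite sides of 0 in GFP and TBX18 myocytes, and ENSRNOG00000008176 is lower at day 14 by -1.69 and -3.71.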

How the data were processed

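Gene expression was measured by droplet 3' single-cell RNA-seq in 5 libraries of cultured neonatal rat ventricular cells. STAR 2.7.8a, Partek and the build Rnor_6.0 are named in the submitters' processing notes, with no role given. Annotation and cell filters are not given in the sources used here. The authors deposited the day 3 tables as estimated counts of UMIs, judged from the values, and the day 14 tables on a log2 scale, as CPM of the cell with 1 added. For day 14, UMIs were rebuilt by reading each cell's modal value above 0 as a single molecule, and sums were rounded to whole numbers for intervals. This was checked on 500 cells of the GFP library of day 3, rounded to whole UMIs and put on the log2 scale. There 100% of UMIs came back, and fractional values were outside this check.

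Cells with at least 500 genes were kept, and ties at M = 2S lay outside the rule. UMIs were summed for each library and class over the 15077 features listed in every table, which held at least 99.8% of UMIs, and CPM took these sums as base. Log2 ratios over genes were taken after adding 0.5 CPM, for genes averaging 5 CPM or more, and a gene was counted from 2-fold. Ratios of single genes had no pseudocount. In simulated counts over 8024 genes, 100% of genes changed 3-fold were found in each direction, with 0 false calls. These counts were Poisson draws from a shared profile, without spread between libraries. They check the computation only and give no rate of false calls between single libraries. Intervals were Poisson, Clopper-Pearson or conditional binomial. Cells were thinned to 5000 UMIs where stated. Python 3.11.15, scipy 1.17.1 and scanpy 1.11.5 were used. Values of 309 shared genes included fractions, Col3a1 among the genes named here.

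The named genes were meant to be members of 38 gene lists and the 12 genes with the highest and lowest ratios that have a symbol. With 0 IDs matched, only the 6 rule genes and the transgenes could be named. The members and lists were chosen with earlier results of these data known. The alternatives tried are given in the closing section.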

Additional observations from a re-analysis of the deposited data

Results flagged for a closer look

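Actc1 took opposite directions with the 2 viruses. Its log2 ratio of day 14 over day 3 was 1.00 in GFP myocytes and -0.35 in TBX18 myocytes, at 12665 CPM at day 3 and 9930 CPM at day 14. Under median-of-ratios scaling these were 0.90 and -0.74. The viruses' difference has no test, each group being 1 library.

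ENSRNOG00000009073 took opposite directions in the 2 cell classes of the GFP libraries. Its log2 ratio was -1.32 in GFP myocytes and 0.40 (0.33 to 0.48) in GFP stromal cells, and it was -1.54 in TBX18 stromal cells. In stromal cells its level was 34.8 CPM at day 3 and 46.0 CPM at day 14, against 2534 CPM and 1012 CPM in myocytes. Under median-of-ratios scaling its log2 ratio was -1.42 in GFP myocytes and 0.18 in GFP stromal cells. The unscaled stromal value of 0.40 lay beside a median of 0.21 over all genes tested in GFP stromal cells. The difference between the classes was not tested.

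The comparisons did not use barcodes under 500 genes, of which the GFP library of day 3 had 731, with 5213723 UMIs. They held 4 EGFP UMIs, above the limit of 3 for a count of 0, or 0.767 CPM (0.209 to 1.96). They also held 2725 UMIs of Tnnt2, Actc1 and Myh6 together, or 523 CPM, and 445 UMIs of the 3 collagens, or 85.4 CPM. The myocytes of the same library had 92.9 CPM of EGFP. The day 14 table starts at 1997 genes and holds no such barcodes.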

How the results depend on the processing

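The shares, counts, SD and ratios were recomputed under 16 settings that changed 1 choice each, giving 232 values. No log2 ratio changed direction, 19 values moved beyond tolerance and 2 crossed 2-fold upward. The tolerance was wider for gene counts than for shares of cells. The myocyte shares moved with the rule for cells. With M > S the day 3 and day 14 shares were 61.7% and 29.8% (GFP) and 53.2% and 14.1% (TBX18). With M > 10S the day 3 shares were 57.6% (GFP) and 44.6% (TBX18), and the TBX18 share of day 14 was 11.9%. Holding day 3 cells to the gene and UMI limits of day 14, the day 3 shares were 61.3% for GFP and 46.4% for TBX18. Leaving out the top 6% of Scrublet scores gave 29.0% for GFP at day 14. Members with M of at least 5000 CPM, a setting chosen after seeing the data, made up 57.5% for GFP and 43.4% for TBX18 at day 3.

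With a minimum mean of 1 CPM, 11090 genes were tested in GFP myocytes, and 1468 were at least 2-fold higher and 837 lower. With a minimum of 20 CPM, 4401 were tested, and 443 were higher and 384 lower. These counts changed together with the number of genes tested. A pseudocount of 5 CPM gave an SD of 0.76, with 590 genes at least 2-fold higher and 446 lower, against 883 and 632. Neither count was among the values beyond tolerance. The SD was 0.89 without the genes 4-fold apart between days in every class, a setting chosen after seeing the data, as were leaving out fractional or stromal-leaning genes. Median-of-ratios scaling gave 762 genes at least 2-fold higher and 763 lower. This put 49.97% of the called genes on the higher side, against 58.3%, so the excess of higher genes was not kept. Actc1 reached a log2 ratio of 1.02 with the 6 rule genes out of the CPM base, and EGFP one of 1.10 in cells with an EGFP UMI only, a setting that selects cells on EGFP itself at unequal depths and so is no check of that ratio. In GFP myocytes the 4 unnamed genes kept their side of 2-fold under all settings run. In TBX18 myocytes, median-of-ratios scaling put ENSRNOG00000043866 and ENSRNOG00000030478 at log2 ratios of 0.70 and 0.74, under 2-fold. There ENSRNOG00000008176 and ENSRNOG00000009073 stayed past 2-fold lower, at -4.09 and -1.79.

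The planned gene lists and the CPM base without mitochondrial genes were not run, because the IDs have no names here. Leaving out a replicate was not possible with 1 library in a group. No paired analysis was possible because each group has 1 library. Depth limits statements on single cells: at 5000 UMIs, 1 UMI is the lowest level seen in a cell.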
